A study of Mus musculus with 6 samples.

Results

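The T-box genes encode transcription factors that bind DNA through a shared T-box domain. Described here are the 9 T-box genes expressed in head mesenchyme or linked to clefting: Tbx1, Tbx2, Tbx3, Tbx4, Tbx5, Tbx15, Tbx18, Tbx20 and Tbx22. They were chosen by gene symbol, and all 9 are among the 24421 rows of the authors' deposited tables. The samples were anterior palatal mesenchyme, freed of epithelium with Dispase II, from mouse embryos on a C57BL/6 background at the embryonic stage E12.5. There were 3 Wnt1Cre;Meis2f/f samples and 3 wildtype (WT) samples. In the Wnt1Cre;Meis2f/f embryos both alleles of Meis2, a TALE homeodomain transcription factor, are floxed, and Cre is driven by Wnt1 and acts in the neural crest and its descendants, so cells of other origin keep Meis2. The labels name neither the deleted exons nor a Cre or floxed allele in the WT embryos, and call the samples biological replicates.

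T-box factors act as activators or repressors, often in overlapping domains where one can stand in for another. In the mouse face, Tbx22 marks the palatal shelves, and its human counterpart is mutated in X-linked cleft palate with tongue-tie. Tbx1 is the T-box gene of the human region lost in DiGeorge syndrome. Tbx2 and Tbx3 are closely related repressors, and Tbx15 and Tbx18 form another closely related pair that acts in mesenchyme. Tbx4 and Tbx5 are best known from limbs and Tbx5 and Tbx20 from the heart.

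The authors deposited the results of their DESeq2 comparisons, one of 6 libraries and one of 4 of the same 6, and no values per library. Whole reads per library were recovered from the 2 deposited means for 13093 of 13107 genes with means of 10 to 2000, and for Tbx5 and Tbx20 below that range. More abundant genes have no values per library here. Libraries are called A, B and C in the Wnt1Cre;Meis2f/f group and D, E and F in the WT group, since they could not be tied to replicate numbers. Normalised reads are reads divided by the library's size factor. The sources do not name the direction of the fold change. It was read as Wnt1Cre;Meis2f/f over WT because Meis2 is then lower in the mutant, and every direction and group name below rests on that reading. Meis2 had 1250, 1378 and 1218 normalised reads in Wnt1Cre;Meis2f/f libraries A, B and C, against 1526, 1549 and 1695 in WT libraries D, E and F. Its moderated log2 fold change in the authors' deposited table was -0.28 (SE 0.092, DESeq2 adjusted p = 0.0743), and in the authors' deposited 4-library table it was -0.33 (adjusted p = 0.0213).

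Reads of the recovered genes summed to between 4738220 and 8298339 in the mutant libraries, against between 4594419 and 7327108 in the WT libraries. In both genotypes the 8 palatal markers with values per library were all above the minimum of 10 normalised reads. The lowest value was 67.74 for Msx1 in mutant library B. Among Osr2, Shox2, Pax9, Alx4 and Meox2 the lowest value was 193.2, for Alx4 in mutant library C. Of the 10 palatal mesenchyme markers, 1 was called higher and 4 were called lower in the mutant by DESeq2 in the authors' deposited table of 6 libraries, where 1.75% of all genes with an adjusted p were called higher and 1.16% lower. Epcam and Cdh1, which mark epithelium, had 198 to 317 normalised reads in the mutant libraries, against 152 to 348 in WT, and 0 of 6 epithelial markers were called by DESeq2 or by limma, or had an unadjusted p under 0.05. Some markers of head muscle and of neurons moved with genotype. The 8 measured muscle markers summed to between 1069 and 1662 normalised reads in the mutant libraries, against between 541.0 and 680.1 in WT. Of these 8, 5 were called higher with 6 libraries, Tnnt1 and Myog first, beside 1.75% of all genes, and 2 were called higher in the authors' deposited 4-library table, beside 1.31%. Tcf21 and Lhx2 had means under 10. The neuron markers Dcx, Tubb3, Elavl4, Isl1 and Stmn2 summed to between 313.3 and 363.2 normalised reads in the mutant libraries, against between 488.0 and 835.0 in WT. Dcx, Tubb3 and Elavl4 were called lower in the authors' deposited table of 6 libraries, beside 1.16% of all genes, and Isl1 and Stmn2 were not (DESeq2 adjusted p = 0.808 and 0.855). With 4 libraries Dcx kept its call, and Tubb3 (adjusted p = 0.314) and Elavl4 (adjusted p = 0.8) did not. Chat had no reads. The part of these shifts in the T-box results was not tested, and in bulk tissue fewer cells of a type and less RNA per cell cannot be told apart.

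Mutant library B and WT library E are the 2 that the authors' deposited 4-library table leaves out. They stood furthest from the other libraries of their genotype, at a root mean square log2 distance of 0.291 for B and 0.263 for E, against 0.167 to 0.232 for the other 4. Their summed epithelial markers were also the highest, at 1156 normalised reads in B, against 849.9 and 918.2 in the other mutant libraries, and at 1192 in E, against 783.7 and 852.5 in the other WT libraries. For the T-box genes, results without them, or with them as a term of the fit, are given where a call changes. The limma call of Meis2 changed too. Its log2 difference was -0.31 (limma adjusted p = 0.0967) with 6 libraries. With B and E as a term, chosen after seeing the data, the limma adjusted p was 0.00503. Without B and E limma gave -0.38 (adjusted p = 0.00961).

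Of the 9 T-box genes, 7 had a mean of at least 10 normalised reads and an adjusted p, and 3 of these 7 were called, at an adjusted p under 0.05, in the 6-library comparison of the authors' deposited tables. Tbx15 rose, and Tbx2 and Tbx3 fell. Over all genes with an adjusted p in that table, 2.9% were called, 1.75% higher and 1.16% lower. The authors' deposited 4-library table called the same 3 genes in the same directions, where 2.3% of all genes were called, 1.31% higher and 0.99% lower. In the recovered reads the 3 mutant and 3 WT libraries did not overlap for 4 T-box genes, Tbx15, Tbx2, Tbx3 and Tbx18, and 18.0% of the 13093 recovered genes had groups that did not overlap, 8.96% with the mutant higher and 9.0% with it lower.

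**Figure D1:**
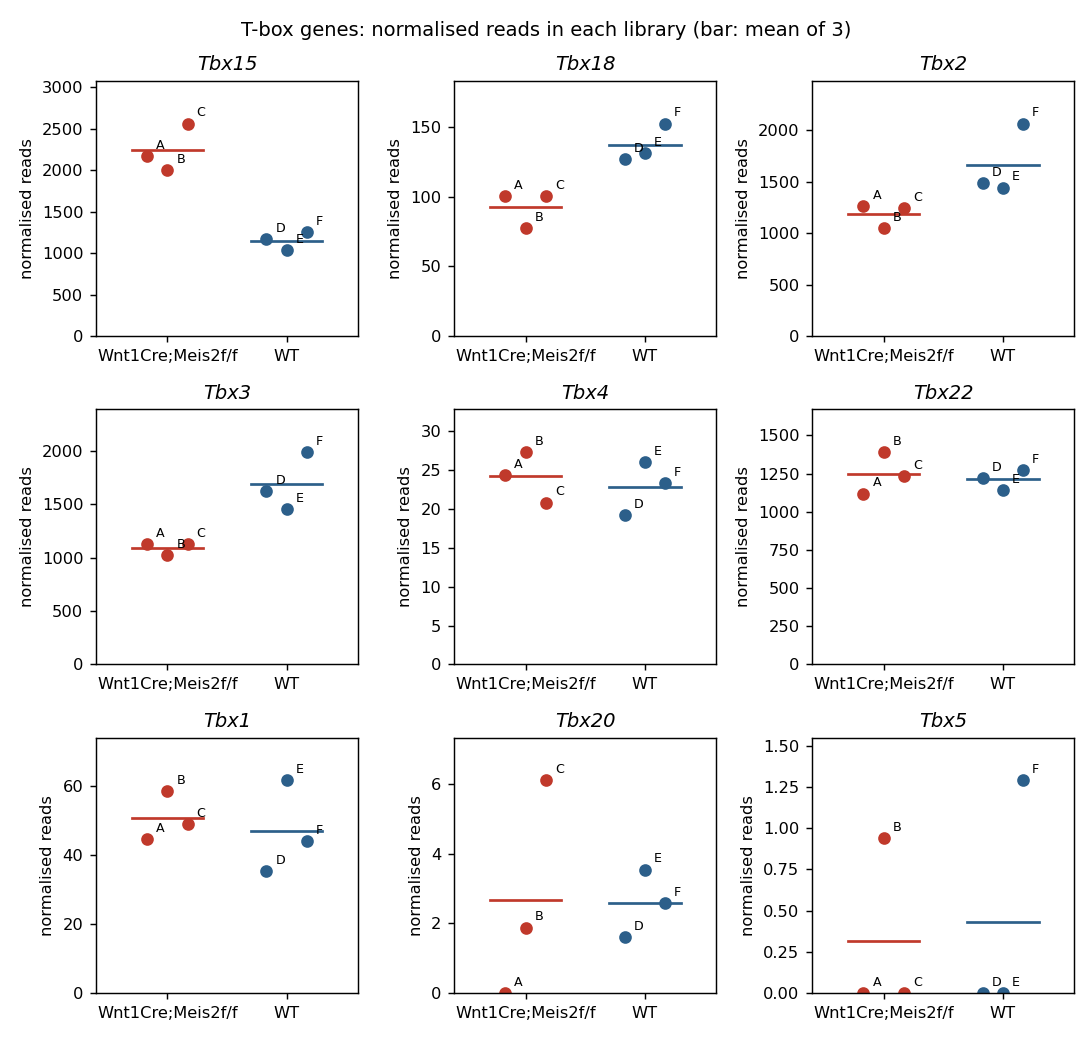
Normalised reads (vertical axes, each from 0) of the 9 T-box genes in the 3 Wnt1Cre;Meis2f/f libraries (A to C, left in each panel) and the 3 WT libraries (D to F, right), with the mean of each group as a bar. The groups do not overlap for Tbx15, which is higher in the mutant, nor for Tbx2, Tbx3 and Tbx18, which are lower, and they overlap for the other 5 genes.

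Because these genes are related, a read could in principle fall in a stretch that 2 of them share. Over the 36 pairs of the 9 genes, the longest stretch of identical bases ran from 11 to 42 bases in the annotated transcripts, with a median of 17, and from 11 to 23 bases in the coding sequences. The longest identical coding stretches of the 2 closely related pairs are shown, with positions counted from the first base of each coding sequence in the GENCODE annotation of GRCm38. The pair of Tbx15 (bases 532 to 554) and Tbx18 (bases 628 to 650) shares 23 bases, and the pair of Tbx2 (bases 325 to 338) and Tbx3 (bases 319 to 332) shares 14.
Tbx15 and Tbx18: catagctctaagtggatggtggc
Tbx2 and Tbx3: ctggaggccaagga

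Tbx15, which in mouse is required for normal skeletal and skin patterning, was the T-box gene that rose. It lies at chr3:99240381-99354259 on the plus strand of GRCm38. It had 2172, 2004 and 2562 normalised reads in Wnt1Cre;Meis2f/f libraries A, B and C, against 1167, 1033 and 1252 in WT libraries D, E and F. Every mutant library was above every WT library, and the lowest mutant library stood 751.5 normalised reads above the highest WT library. The means were 2246 ± 286 in the mutant and 1151 ± 111 in WT (SD, n = 3 each), a ratio of 1.95. In the authors' deposited table the moderated log2 fold change of Tbx15 was 0.83 (SE 0.104, 95% interval 0.63 to 1.03, DESeq2 adjusted p = 6.33e-13). The authors' deposited 4-library table gave 0.85 (SE 0.096, adjusted p = 7.47e-16). In size, 63 of 14577 genes with a mean of at least 10 had a moderated log2 fold change of 0.8 or more in either direction in the authors' deposited table. Among the called genes of that table Tbx15 was 33rd of 434 by adjusted p, and 35th of 261 by size among those that rose.

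Tbx18, the closest relative of Tbx15, is known from mesenchyme of the somites, ureter and heart in mouse, and lies at chr9:87702800-87731260 on the minus strand of GRCm38. It had 100.2, 77.15 and 100.3 normalised reads in Wnt1Cre;Meis2f/f libraries A, B and C, against 127.0, 131.3 and 152.4 in WT libraries D, E and F. The groups did not overlap, with means of 92.5 ± 13.3 in the mutant and 136.9 ± 13.6 in WT (SD, n = 3 each), a ratio of 0.676. It was nonetheless not called: the moderated log2 fold change in the authors' deposited table was -0.38 (SE 0.140, 95% interval -0.66 to -0.11, DESeq2 adjusted p = 0.142). The authors' deposited 4-library table gave -0.24 (adjusted p = 0.689). Tbx18 is also a gene of pericytes in adult mice. The pericyte and smooth muscle markers summed to between 1397 and 1485 normalised reads in the mutant libraries, against between 1179 and 1491 in WT, over 6 of the 8 markers. Of the 8, 1 was called higher with 6 libraries, the smooth muscle actin gene Acta2, beside 1.75% of all genes with an adjusted p.

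Tbx3, a repressor whose human counterpart is mutated in ulnar-mammary syndrome, fell. It lies at chr5:119670669-119684724 on the plus strand of GRCm38. It had 1122, 1022 and 1124 normalised reads in Wnt1Cre;Meis2f/f libraries A, B and C, against 1624, 1450 and 1987 in WT libraries D, E and F. The mutant libraries lay close together, with a coefficient of variation of 5.4%, against 16.2% among the WT libraries, of which F was the highest. The means were 1089 ± 58.4 in the mutant and 1687 ± 274 in WT (SD, n = 3 each), a ratio of 0.646. The moderated log2 fold change of Tbx3 in the authors' deposited table was -0.54 (SE 0.107, 95% interval -0.75 to -0.33, DESeq2 adjusted p = 5.32e-05), and the authors' deposited 4-library table gave -0.58 (adjusted p = 1.53e-06). An antisense gene, Tbx3os1, overlaps the start of Tbx3 in the annotation and has no row under that name. Whether the counting used strand is not given, so reads of the 2 genes cannot be told apart.

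Tbx2, the close relative of Tbx3 and a repressor of cell cycle inhibitor genes, fell as well. It lies at chr11:85832551-85841948 on the plus strand of GRCm38. It had 1263, 1047 and 1240 normalised reads in Wnt1Cre;Meis2f/f libraries A, B and C, against 1483, 1443 and 2066 in WT libraries D, E and F. The groups did not overlap, and WT library F was far above the other WT libraries. The means were 1183 ± 119 in the mutant and 1664 ± 349 in WT (SD, n = 3 each), a ratio of 0.711. The moderated log2 fold change of Tbx2 in the authors' deposited table was -0.40 (SE 0.116, 95% interval -0.63 to -0.17, DESeq2 adjusted p = 0.0231), and the authors' deposited 4-library table gave -0.40 (adjusted p = 0.0174). The call depended on the test: limma on log2 normalised reads of the 6 libraries gave -0.48 (95% interval -0.77 to -0.19, adjusted p = 0.106), and -0.31 (adjusted p = 0.319) without WT library F. The same limma test called Tbx15 at 0.96 (95% interval 0.73 to 1.19, adjusted p = 0.000505) and Tbx3 at -0.62 (95% interval -0.86 to -0.38, adjusted p = 0.0122), where it called 2.45% of all genes. For Tbx18 it gave -0.57 (95% interval -0.92 to -0.21, adjusted p = 0.117). With libraries B and E against the other 4 as a term beside genotype, a fit chosen after seeing the data, the differences were the same and limma called all 4 of these genes. The adjusted p was then 0.0214 for Tbx2 and 0.0165 for Tbx18, where 9.42% of all genes were called. With B and E left out, limma called Tbx15 (adjusted p = 2.31e-06) and Tbx3 (adjusted p = 0.000208), and neither Tbx2 (adjusted p = 0.157) nor Tbx18 (adjusted p = 0.174).

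**Figure D2:**
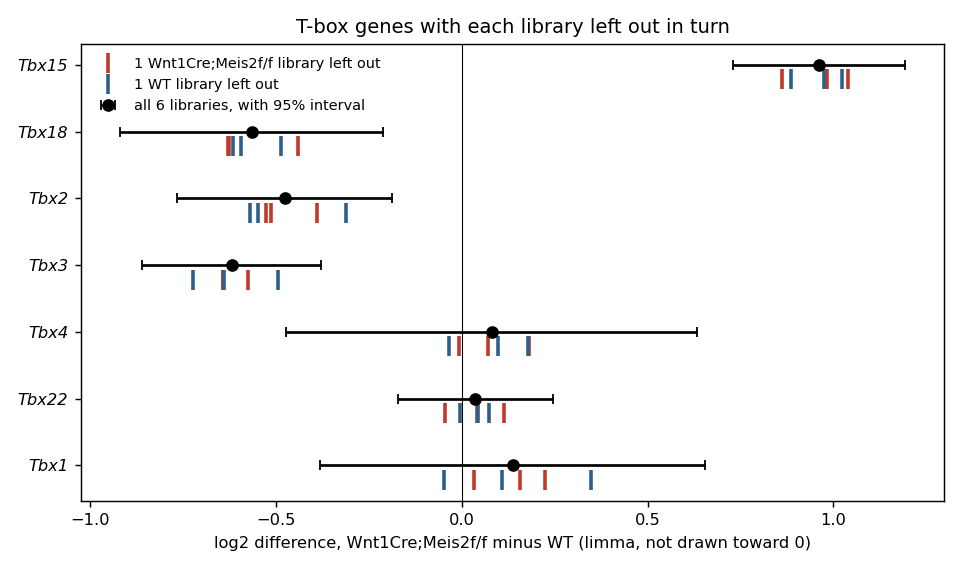
Log2 difference, Wnt1Cre;Meis2f/f minus WT (horizontal axis), by limma on log2 normalised reads for the 7 measured T-box genes, with points and 95% intervals from all 6 libraries and ticks for each fit that leaves out 1 library. The ticks of Tbx15 run from 0.86 to 1.04, those of Tbx3 from -0.72 to -0.50, those of Tbx2 from -0.57 to -0.31 and those of Tbx18 from -0.63 to -0.44, while those of Tbx1, Tbx4 and Tbx22 lie on both sides of 0.

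With 1 library left out in turn, limma called Tbx15 in 6 of 6 fits, Tbx3 in 4 of 6, Tbx2 in 1 of 6 and Tbx18 in 0 of 6. Tbx3 missed the threshold without mutant library A (adjusted p = 0.0504) and without WT library D (adjusted p = 0.0667), at log2 differences of -0.64 in both fits. All 6 fits gave a positive difference for Tbx15 and a negative one for Tbx2, Tbx3 and Tbx18.

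Tbx22, the T-box gene of the palatal shelves, did not differ detectably. It lies at chrX:107667964-107688978 on the plus strand of GRCm38. It had 1118, 1391 and 1233 normalised reads in Wnt1Cre;Meis2f/f libraries A, B and C, against 1222, 1143 and 1273 in WT libraries D, E and F. The groups overlapped, with means of 1247 ± 137 in the mutant and 1212 ± 65.8 in WT (SD, n = 3 each). The moderated log2 fold change of Tbx22 in the authors' deposited table was 0.03 (95% interval -0.16 to 0.23, DESeq2 adjusted p = 0.954), and it was -0.07 in the authors' deposited 4-library table. By limma the 95% interval of the ratio ran from 0.887 to 1.19. Mn1, a transcriptional regulator known in mouse to act upstream of Tbx22 in the palate, had a moderated log2 fold change of 0.14 (SE 0.104, DESeq2 adjusted p = 0.751) in the authors' deposited table.

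Tbx1, known in mouse from the pharyngeal mesoderm and from palate and tooth development, was weakly expressed. It lies at chr16:18580979-18590671 on the minus strand of GRCm38. It had 44.5, 58.3 and 48.9 normalised reads in Wnt1Cre;Meis2f/f libraries A, B and C, against 35.2, 61.5 and 43.9 in WT libraries D, E and F. The WT libraries spanned the whole range of the mutant ones, and the moderated log2 fold change in the authors' deposited table was 0.06 (SE 0.150, 95% interval -0.24 to 0.36, DESeq2 adjusted p = 0.947). Behind these values stood 296 reads over all 6 libraries. By limma the 95% interval of the ratio ran from 0.767 to 1.57, so the reads are compatible with ratios across that range. The smallest detectable change was not computed. In mouse Tbx1 is also a gene of the head muscle lineage. Its level overlapped between groups in which the summed muscle markers did not, and whether Tbx1 followed the muscle shift was not tested.

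Tbx4, a hindlimb gene, was weaker still. It lies 44.5 kb beyond Tbx2, at chr11:85886422-85916097 on the plus strand of GRCm38. It had 24.4, 27.3 and 20.8 normalised reads in Wnt1Cre;Meis2f/f libraries A, B and C, against 19.2, 26.0 and 23.2 in WT libraries D, E and F. The groups overlapped, and the moderated log2 fold change in the authors' deposited table was 0.04 (SE 0.145, 95% interval -0.25 to 0.32, DESeq2 adjusted p = 0.967). By limma the interval of the ratio ran from 0.72 to 1.55, on 145 reads in all. Of the other limb markers, Pitx1, which is also a gene of the jaw, had a mean of 48.9 normalised reads, Hoxa13 had no reads, and Hoxc10 and Hoxd13 had means of 0.204 and 0.314.

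Tbx20 and Tbx5 were at the limit of detection, and neither has an adjusted p in the authors' deposited tables. Tbx20, known from the heart and from cranial motor neurons in mouse, lies at chr9:24718138-24774303 on the minus strand. It had 0, 2 and 5 reads in Wnt1Cre;Meis2f/f libraries A, B and C, against 2, 3 and 2 in WT libraries D, E and F. Tbx5, a gene of the forelimb and heart, lies 148 kb beyond Tbx3 at chr5:119832668-119885219 on the plus strand. It had 1 read in mutant library B and 1 in WT library F, and 0 in each of the other 4 libraries. A count of 0 allows up to 3 reads at the same depth, counting error only, so no difference was detectable for either gene. Of 6 heart markers 4 had means under 10, Nkx2-5 at 0.215 and Myl7 at 2.003 normalised reads over the 6 libraries, and the other 2 summed to between 34.08 and 88.05 in the mutant libraries, against between 27.11 and 54.41 in WT.

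**Figure D3:**
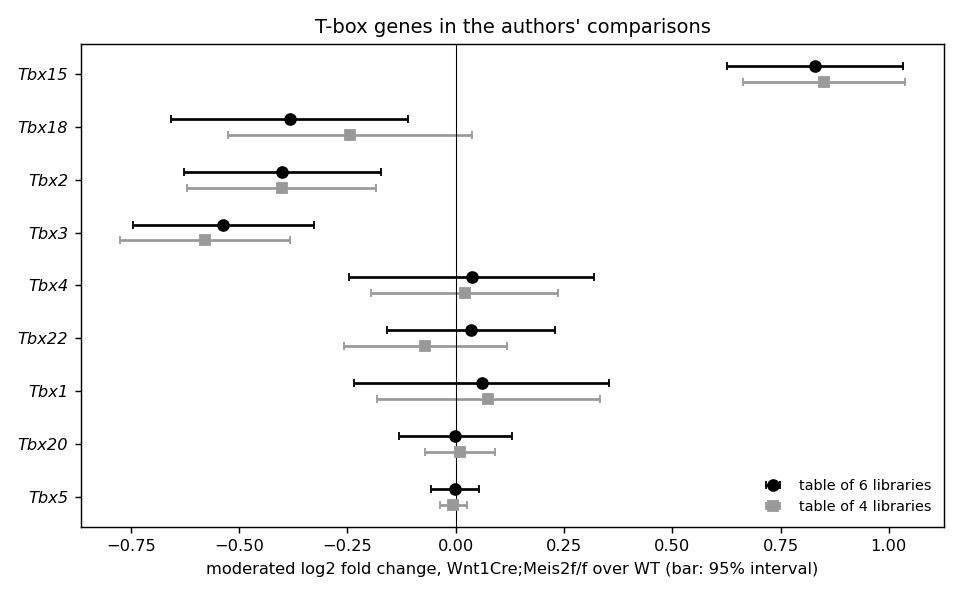
Moderated log2 fold change, Wnt1Cre;Meis2f/f over WT, of the 9 T-box genes in the authors' deposited tables (horizontal axis), with 95% intervals, for 6 libraries (black circles) and 4 of them (grey squares). The intervals of Tbx15, Tbx2 and Tbx3 stay on one side of 0 in both tables, that of Tbx18 only with 6 libraries, and the values of Tbx5 and Tbx20 are drawn toward 0 for want of reads.

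The order of the T-box genes by level differed between the genotypes. Levels were set against each other as normalised reads per kb of annotated exon. The order rests on those lengths, since the transcripts present were not determined. In the mutant, Tbx15 was first at 599.4, followed by Tbx2 at 326.4, Tbx22 at 224.7 and Tbx3 at 164.4. In WT, Tbx2 was first at 458.9, followed by Tbx15 at 307.1, Tbx3 at 254.7 and Tbx22 at 218.5. In the mutant, the libraries of each neighbouring pair among these 4 genes did not overlap: Tbx15 spanned 534.8 to 683.7, Tbx2 288.8 to 348.4, Tbx22 201.4 to 250.5 and Tbx3 154.2 to 169.7. In WT, Tbx2 spanned 397.9 to 569.7, Tbx15 275.6 to 334.2, Tbx3 218.9 to 299.98 and Tbx22 205.9 to 229.4, so Tbx3 overlapped both of its neighbours. Tbx18, at 19.6 in the mutant and 29.0 in WT, Tbx1, at 14.4 and 13.3, and Tbx4, at 7.10 and 6.71, came next in that order in both genotypes.

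**Figure D4:**
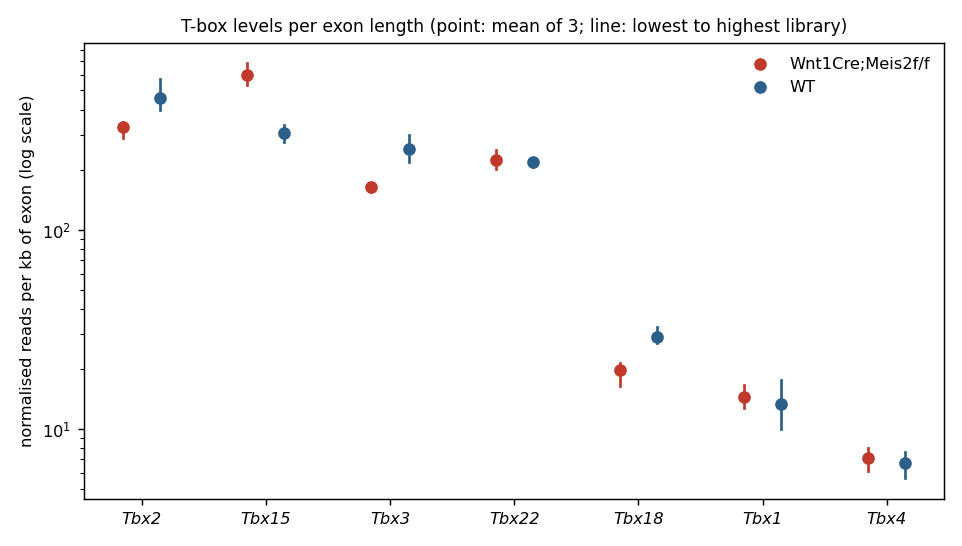
Level of the 7 measured T-box genes as normalised reads per kb of exon (vertical axis, log scale), with the mean of 3 libraries as a point and a line from the lowest to the highest, Wnt1Cre;Meis2f/f left and WT right. Tbx15 is the highest in the mutant at 599.4 and Tbx2 in WT at 458.9, and Tbx18, Tbx1 and Tbx4 lie far below the leading 4 genes.

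Ratios of reads per kb within a library do not depend on its size factor. Tbx15 over Tbx2 was 1.66, 1.85 and 1.999 in Wnt1Cre;Meis2f/f libraries A, B and C, against 0.762, 0.692 and 0.587 in WT libraries D, E and F, so these 2 genes changed places. Tbx3 over Tbx22 was 0.841, 0.616 and 0.764 in mutant libraries A, B and C, against 1.11, 1.06 and 1.31 in WT libraries D, E and F. Per kb these 2 changed places as well, but that rests on the exon lengths. In reads not divided by length, mutant library A had 1613 of Tbx3 and 1607 of Tbx22. Library B had 1086 and 1478, and library C had 919 and 1008. Per kb, the other ratios stayed on one side of 1 in all 6 libraries, which also rests on the exon lengths. Tbx15 over Tbx3 ran from 3.42 to 4.03 in the mutant libraries, against 1.11 to 1.27 in WT, and Tbx15 over Tbx22 ran from 2.13 to 3.08 in the mutant, against 1.34 to 1.46 in WT. Tbx2 over Tbx22 ran from 1.15 to 1.73 in the mutant and from 1.86 to 2.48 in WT. In reads not divided by length, Tbx15 was above Tbx3 and Tbx22 in libraries A, B and C and below both in D, E and F. In D, E and F there were 1461, 873 and 970 reads of Tbx15. Those of Tbx3 were 2032, 1226 and 1539, and those of Tbx22 were 1529, 966 and 986. Undivided, Tbx2 was below Tbx22 in library B, at 1113 against 1478 reads, and below Tbx3 in D and E. Among the 8 ratios computed per kb, Tbx2 over Tbx3 overlapped between groups, at 1.87 to 2.06 in the mutant and 1.67 to 1.90 in WT. The pairs were formed from Tbx15, Tbx2, Tbx3, Tbx18 and Tbx22. All of these but Tbx22 already had groups that did not overlap, so the ratios largely restate those differences. No share over pairs of other genes was computed. The level of the 9 genes together, summed per kb, spanned 1270 to 1459 in the mutant and 1152 to 1485 in WT, and these ranges overlapped as well. Of that sum Tbx15 made up 42.1% to 46.9% in the mutant libraries, against 22.5% to 25.4% in WT, while Tbx2 made up 22.7% to 26.0% in the mutant and 33.3% to 38.4% in WT.

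The genes next to the 3 called T-box genes were not called with 6 libraries. Over all genes with an adjusted p, only 2.9% were called there. Wars2, which encodes the mitochondrial tryptophanyl-tRNA synthetase, lies 1194 bases from Tbx15 and had a moderated log2 fold change of 0.15 (DESeq2 adjusted p = 0.725) in the authors' deposited table. The transcript 2610027K06Rik, 327 bases from Tbx2, had 0.03 (adjusted p = 0.971), and Tbx4, on the other side of Tbx2, is described above. On the far side of Tbx15, Spag17 had 0.32 (adjusted p = 0.366), again in the authors' deposited table. The nearest measured genes on either side of Tbx3, Gm16063 and Rbm19, had -0.09 (adjusted p = 0.919) and 0.02 (adjusted p = 0.976) in the same authors' deposited table. RefSeq promoter windows (GRCm38.p6) reaching 250 bases upstream were not matched for the 3 called genes, Tbx15, Tbx2 and Tbx3, so their promoters were not searched. Such windows were matched for 5 of the 9 genes, Tbx1, Tbx4, Tbx18, Tbx20 and Tbx22, in 8 windows. The core motif of MEIS factors, TGACAG on either strand, was in 0 of these 8 windows and in 15.9% of all 32851 windows. The core of the T-box binding site, AGGTGT on either strand was in 1 of the 8, at Tbx1, and in 11.8% of all windows.

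Of the other T-box genes in the tables, 2 of 8 were measured, and 0 of 2 were called by DESeq2 in either of the authors' deposited tables or had an unadjusted p under 0.05 with 6 libraries. Limma, run for Tbx6, did not call it. Tbx6, a gene of the paraxial mesoderm, had 0.06 (adjusted p = 0.949), and Mga, which pairs a T-box with a Myc-type dimerisation domain, had 0.05 (adjusted p = 0.919) as moderated log2 fold change in the authors' deposited table.

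Genes that act upstream of, downstream of or together with T-box factors in mouse were taken as a list of 40, of which 31 were measured. Of these 31, the authors' deposited table has 3 that rose, 4 that fell and 24 that were not called, with a median moderated log2 fold change of 0.04, beside -0.01 over all measured genes and calls of 1.75% higher and 1.16% lower over all genes with an adjusted p. Among the signals and factors placed upstream of T-box genes, Bmp2, which in mouse induces Tbx2 and Tbx3 in several tissues, had 66.8, 46.1 and 62.4 normalised reads in Wnt1Cre;Meis2f/f libraries A, B and C, against 147.0, 131.3 and 140.7 in WT libraries D, E and F. The 2 groups of Bmp2 did not overlap, as for 18.0% of the recovered genes. Its moderated log2 fold change in the authors' deposited table was -0.82 (SE 0.143, DESeq2 adjusted p = 1.82e-06). Bmp4, a second BMP ligand, had 436.8, 396.1 and 443.9 normalised reads in mutant libraries A, B and C. In WT libraries D, E and F it had 393.1, 302.8 and 371.8. The groups of Bmp4 did not overlap either, with the mutant higher. It was not called, at 0.21 (adjusted p = 0.545) in the authors' deposited table. Aldh1a2, the enzyme that makes retinoic acid, fell, with 323.4, 288.8 and 307.0 normalised reads in the mutant libraries A, B and C, against 668.8, 702.5 and 782.4 in WT libraries D, E and F.

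The transcription factor genes Hand2 and Msx2 fell in the authors' deposited table, by 0.58 (DESeq2 adjusted p = 0.000187) and by 0.55 (adjusted p = 0.0032) on the moderated log2 scale. Both were scarce, with at most 28.4 normalised reads of Hand2 and 51.9 of Msx2 in any library, and Msx2 was not called in the authors' deposited 4-library table (adjusted p = 0.245). The chondrogenic factor gene Sox9 had -0.35 (adjusted p = 0.0738) with 6 libraries and fell, at -0.42 (adjusted p = 0.0125), in the authors' deposited table of 4 libraries. Pax9, a paired-box gene required for palate formation in mouse, rose in the authors' deposited table by 0.46 (adjusted p = 0.00077), with 1206, 1348 and 1252 normalised reads in mutant libraries A, B and C, against 847.7, 762.9 and 1011 in WT libraries D, E and F. Gja1, the connexin 43 gene that Tbx2 and Tbx3 repress in mouse heart, rose in the authors' deposited table by 0.29 on the same scale (SE 0.082, adjusted p = 0.0178). Other genes of the list that Tbx2 or Tbx3 is known to repress missed the threshold: the authors' deposited table gives 0.23 (adjusted p = 0.527) for the cell cycle inhibitor gene Cdkn1a and 0.16 (adjusted p = 0.762) for the connexin 40 gene Gja5. In the same authors' deposited table the inhibitor gene Cdkn1c had -0.12 (adjusted p = 0.816), and Cdkn2a and the natriuretic peptide gene Nppa had means under 10 and no adjusted p. Tle1, a Groucho co-repressor gene, rose in the authors' deposited table of 6 libraries by 0.28 (SE 0.085, adjusted p = 0.0383), and missed the threshold with 4 (adjusted p = 0.062).

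**Figure D5:**
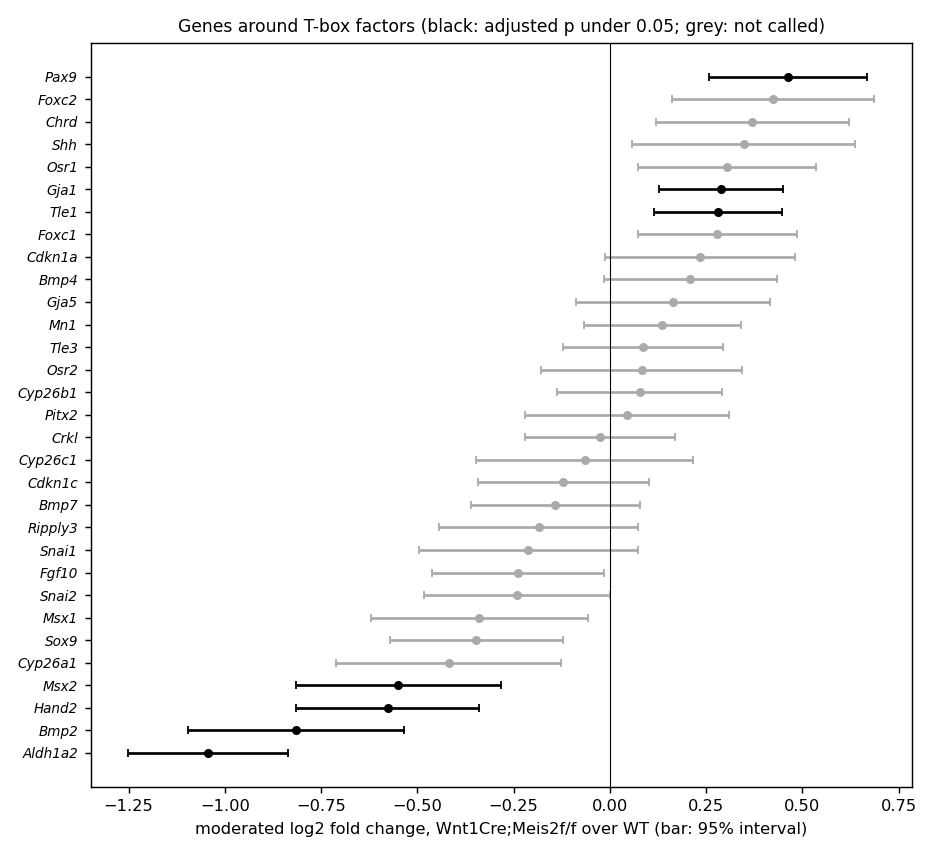
Moderated log2 fold change, Wnt1Cre;Meis2f/f over WT, with 95% intervals (horizontal axis), of the 31 measured genes that act around T-box factors, from the authors' deposited table of 6 libraries. Pax9, Gja1 and Tle1 (black, right of 0) rose, Msx2, Hand2, Bmp2 and Aldh1a2 (black, left of 0) fell, and the other 24, in grey, were not called.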

How the data were processed

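Total RNA (RNeasy Micro Plus) was amplified as cDNA and made into TruSeq v2 libraries, per the labels' protocols. The authors used HISAT2, featureCounts and DESeq2 with builds GRCm38 and mm10, per the submitters' processing notes, and neither versions nor strand settings are stated there. The deposited tables hold, per gene symbol, a base mean (a signal, the mean of normalised reads), a moderated log2 fold change with its standard error, a Wald score, a p-value and an adjusted p-value, as deposited by the authors. The series' text describes each table as 1 pair of libraries, but the tables proved to hold 6 libraries and 4 of the same 6, and the last file repeated rows of the first. Calls use the authors' adjusted p below 0.05.

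The planned design assumed no values per library. Genes with a single read gave the weight of a read in each library, and the whole reads behind both deposited base means were then solved. Of 13107 genes with base means of 10 to 2000, 13093 (99.9%) had 1 solution. On simulated data 200 of 200 genes were solved to the true reads. The simulated means were built with the same read weights that the solving used, so errors in those weights could not show. A single solution is therefore not proof of the true reads. The sign of the authors' fold change for single-read genes put each library on its side; no other fold change was used in solving. Size factors ran from 0.775 to 1.44. limma 3.58.1 in R 4.3.3 (trend, robust, pseudocount 1) was run on the reads, an alternative chosen after seeing the data. Exon lengths and positions are from GENCODE (GRCm38).

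The T-box genes, the lists and the markers were chosen with earlier results of these data known. Named are the 9 genes, Meis2, called members of the lists and the leading markers. Mn1, Bmp4, Msx1, the repression targets that were not called, Elavl4, Stmn2, Isl1 and neighbouring genes were added after their values were seen. The 95% intervals of the authors' DESeq2 fold changes are the estimate plus or minus the normal quantile times the SE. Depth differs between libraries, and reads were made without molecular identifiers. Because cDNA was amplified, genes with few reads may be noisier than their counting error. Values of a further marker gene are left out of the text.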

Additional observations from a re-analysis of the deposited data

How the results depend on the processing

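Tbx15 kept its direction and its side of the threshold under all 16 alternatives, and Tbx18 under 15 of 16, among them the 4-library table, adjusted p thresholds of 0.01 and 0.1, other filters on low values, centring and limma. Tbx18 was called, at -0.566, in the limma fit with libraries B and E as a term. Tbx3 kept its call under 14, and lost it by limma without library A or D. Tbx2 kept its direction under all 16 but lost its call under 9, at a threshold of 0.01 and in 8 of the 10 limma fits; the cause was not tested. Directions of genes that were not called turned: Tbx22 was -0.0701 in the authors' deposited 4-library table and -0.0873 by limma on 4 libraries, Tbx20 was 0.010 in the authors' deposited 4-library table and 0.012 after centring on the median of all genes, and Tbx5 was 0.012 after centring. Leaving out 1 library at a time, limma gave Tbx1 log2 differences from -0.047 to 0.348, Tbx4 from -0.0339 to 0.18 and Tbx22 from -0.0452 to 0.112. In these fits 1 to 3 T-box genes were called, 1 without library A and 1 without library D, beside 135 to 385 of all genes (135 without D, 175 without A and 184 without F, against 321 with 6 libraries) and 3 to 6 genes of the T-box context list (3 without A and 3 without D). With B and E as a term limma called 4 T-box genes, 1234 of all genes and 13 genes of the context list, beside 7 in the authors' comparison; that term was chosen after seeing the data. No paired analysis was possible because the recovered libraries cannot be tied to the labels' replicate numbers. Depth limits Tbx1 and Tbx4, and leaves Tbx5 and Tbx20 without a usable comparison.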
